A study of Mus musculus with 2 samples.

Results

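The transcripts described here are those of 41 mouse genes known for their expression in the liver: carriers and clotting proteins of blood plasma, apolipoproteins, protease inhibitors and enzymes of hepatocytes. They were chosen by symbol, with values of these libraries already known, from the 37315 genes listed in both. The libraries were poly(A)-selected RNA of white adipose tissue, inguinal per the title of the series, from C57BL/6 male mice of 23 weeks made obese by a high-fat diet. One library came from mice given entacapone, and the other from mice given vehicle. Entacapone is a Parkinson disease drug that inhibits catechol-O-methyltransferase and is also known to inhibit FTO, an enzyme that removes methyl groups from RNA. The sources used here do not give the dose, the duration, or how many mice each library stands for.

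Hepatocytes secrete most of the proteins of blood plasma and carry out urea synthesis, amino acid breakdown and much of lipoprotein assembly. Their genes are driven by a small set of liver-enriched factors, among them HNF1, HNF4, FOXA and C/EBP proteins. White fat makes some of the same proteins, such as haptoglobin and retinol binding protein, whereas albumin and fibrinogen are textbook products of liver.

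The entacapone library held 12979673 counted reads and the vehicle library 13620056. Levels are given as reads or as CPM, counts scaled to a common library size. Each group has 1 library, so the differences have no replicate check and no significance test. Intervals are exact 95% intervals for the counting of reads and leave out variation among mice. The reads carry no molecular identifiers, so copies of 1 molecule may be counted more than once. The intervals may therefore be too narrow even for counting error. A gene was called lower or higher where its mean was at least 1 CPM, its ratio reached 2-fold and its interval excluded 1. The adipocyte markers showed fat in both libraries: 0 of 10 were called in either direction, and Adipoq, the adipokine adiponectin, had 39901 entacapone reads against 39603 vehicle reads.

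All 41 members had fewer reads in the entacapone library. Summed over the members it held 1793 reads, or 140.1 CPM, against 9574 reads, or 693 CPM, in the vehicle library. The members thus took 0.0138% of the entacapone reads and 0.0703% of the vehicle reads. Of the 38 members with a mean of at least 1 CPM, 37 were called lower and 0 higher. Over all 13361 genes compared, 3.5% were called lower and 1.66% higher. The members were chosen on this very contrast, so their count, like that of each member group below, is a description and supports nothing. A member could pass the limit of 1 CPM through the vehicle library alone. Their median log2 ratio was -2.73, with 0.5 CPM added to each value, and that of all genes compared was 0.00. Tat, Otc and Hamp had means over both libraries under 1 CPM and were not compared. In bulk tissue, fewer cells of a type and less RNA per cell cannot be told apart.

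**Figure D1:**
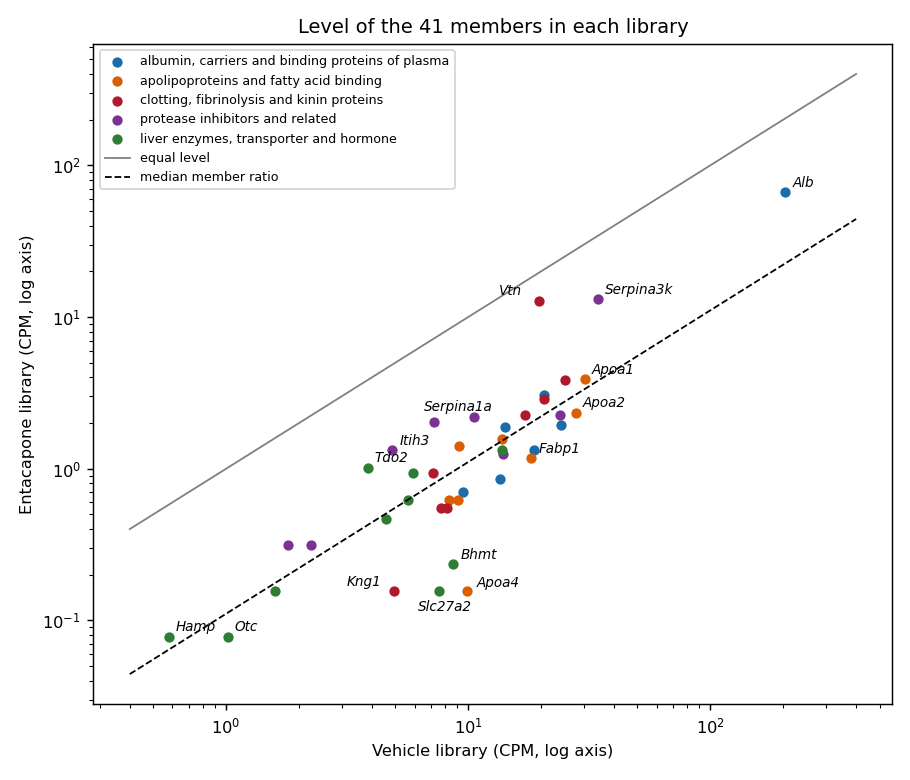
Level of each of the 41 members in the entacapone library (y axis, CPM, log scale) against the vehicle library (x axis, CPM, log scale), coloured by role. The points lie under the line of equal level. Most follow the dashed line of the median member ratio, with Alb, Serpina3k and Vtn above it and Apoa4, Slc27a2 and Bhmt below it.

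A single number describes part of this pattern. The ratio of the median member, Hpd, put the entacapone level at 11.1% of the vehicle level, which is 9.03-fold lower. The intervals of 29 of the 41 members held this ratio, and so did those of 26 of the 38 members compared. Among all genes compared, the intervals of 0.696% held it. The ratio is the median of these same members, so the member share is a description and supports nothing. An interval that holds the ratio does not show that the gene has it, since members with few reads have wide intervals. The intervals of 8 members lay wholly on the side of a smaller difference: Vtn, Serpina3k, Alb, Serpina1a, Itih3, Tdo2, Itih4 and Fga. Those of 4 lay wholly on the side of a larger difference: Apoa4, Slc27a2, Bhmt and Fabp1. One common ratio therefore did not describe all members within counting error as these intervals measure it. Fga and Fabp1 missed the ratio by little, with nearest bounds of 9.01-fold and 9.22-fold.

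**Figure D2:**
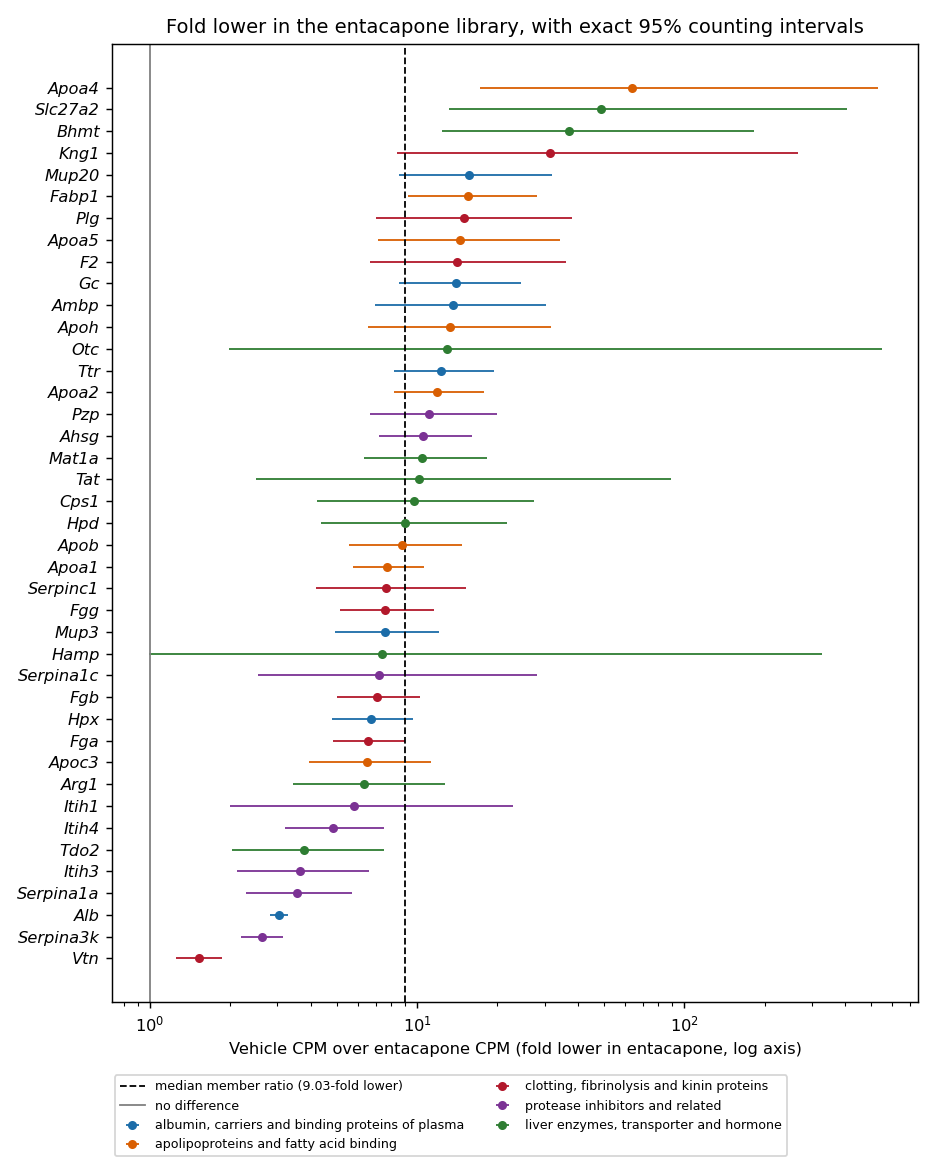
Fold by which each member was lower in the entacapone library (x axis, log scale), with exact 95% counting intervals, ordered by size and coloured by role. The dashed line marks the median member at 9.03-fold and the grey line no difference. The intervals of Apoa4, Slc27a2, Bhmt and Fabp1 lie right of the dashed line, and those of 8 members from Fga to Vtn lie left of it.

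How many members fitted depended on which ratio was taken as common. With the ratio of the summed reads of all members, 4.95-fold (4.70 to 5.21), 17 intervals held it, 3 lay on the smaller and 21 on the larger side. Albumin weighed heavily in that sum, and without it the summed reads were 6.66-fold lower (6.22 to 7.14). Alb, Serpina3k and Vtn lay on the smaller side, and Apoa4, Slc27a2 and Bhmt on the larger side, under each of 7 settings of scaling, common ratio and interval width, the one used here included. No liver library was analysed here. RNA made in fat and RNA of liver origin present at unequal shares cannot be told apart for the members that depart from the median.

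Across the 41 members, log2 CPM in the entacapone library correlated with that in the vehicle library, with a Pearson r of 0.85 and a Spearman rho of 0.83. This is a description across genes of the same pair of libraries, and genes are not independent replicates. The log2 ratio showed little relation to the vehicle level per length (r 0.14, rho 0.04) or to exon length (r -0.04, rho -0.03).

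Promoter sequence was not used to choose the members. RefSeq promoter windows (GRCm38.p6, 250 bases before to 50 after the start, 300 in all) matched 32 members with 34 windows; Apoa2 and Apoa5 have a pair of starts each. Motifs were searched on both strands. The HNF1 motif, GTTAAT and ATTAAC parted by any 1 base, with up to 2 mismatches, was found in 6 of 34 member windows, 17.6% (exact 95% binomial interval 6.76 to 34.5), and in 1.36% of all 32851 windows. With 1 mismatch fewer it was found in 1 member window, 2.94% (0.0744 to 15.3), and in 0.207% of all windows, a share inside that interval. The C/EBP motif TTGCNNAA was found in 10 windows, 29.4% (15.1 to 47.5), against 10.8% of all windows. The TATA box TATAAA was found in 26.5% of member windows against 13.6% of all. The HNF4 motif CAAAGTCCA, with up to 1 mismatch, was in 17.6% against 8.47%, and the FOXA motif TGTTTAC in 5.88% against 3.65%. For these last 3 motifs the share over all windows lay inside the member interval. The HNF1 matches were in Alb, F2, Fga, Fgb, Gc and Pzp, and 11 members had none of the 5 motifs. A match is a description of the letters and not a bound site.

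**Figure D3:**
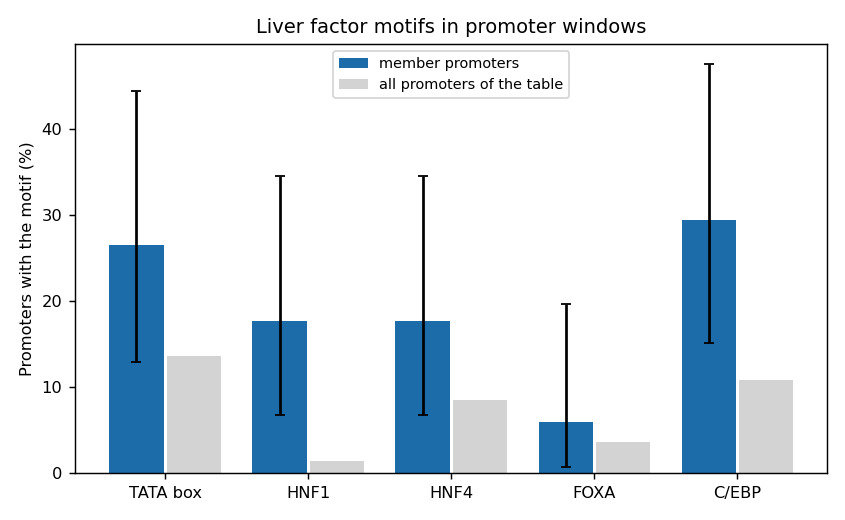
Share of promoter windows with each motif (y axis, percent) in the 34 member windows (blue, with exact 95% binomial intervals) and in all 32851 windows (grey). HNF1 stands at 17.6% against 1.36% and C/EBP at 29.4% against 10.8%, while the member intervals of the other 3 motifs include the share of all windows.

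The 4 windows below are shown because they carry an HNF1 match and belong to abundant members. Capitals mark the HNF1 match and, upstream of it in Alb, Fga and Fgb, a C/EBP match. The HNF1 match starts 32 bases before the RefSeq start of Alb (chr5:90460620-90460919, plus strand) and 52 before that of Gc (chr5:89457849-89458148, minus strand). It starts 50 before that of Fga (chr3:83025903-83026202, plus strand) and 36 before that of Fgb (chr3:83049814-83050113, minus strand). These starts can differ from the gene positions given elsewhere, which come from another annotation.
Alb: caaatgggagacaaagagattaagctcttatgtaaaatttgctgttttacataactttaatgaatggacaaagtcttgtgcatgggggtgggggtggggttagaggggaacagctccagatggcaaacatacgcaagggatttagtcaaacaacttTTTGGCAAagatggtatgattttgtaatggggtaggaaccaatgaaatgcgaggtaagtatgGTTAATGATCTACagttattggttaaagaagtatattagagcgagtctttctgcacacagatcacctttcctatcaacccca
Gc: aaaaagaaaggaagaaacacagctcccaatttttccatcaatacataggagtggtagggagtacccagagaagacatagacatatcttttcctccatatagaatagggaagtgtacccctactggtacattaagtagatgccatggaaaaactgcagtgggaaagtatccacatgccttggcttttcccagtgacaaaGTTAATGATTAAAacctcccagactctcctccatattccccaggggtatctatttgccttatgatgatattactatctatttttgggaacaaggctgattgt
Fga: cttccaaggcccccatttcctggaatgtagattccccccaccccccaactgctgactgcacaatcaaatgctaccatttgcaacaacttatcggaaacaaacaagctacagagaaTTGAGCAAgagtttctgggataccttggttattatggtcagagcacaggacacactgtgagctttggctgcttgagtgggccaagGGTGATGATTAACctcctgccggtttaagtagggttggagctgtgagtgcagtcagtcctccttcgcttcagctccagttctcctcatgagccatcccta
Fgb: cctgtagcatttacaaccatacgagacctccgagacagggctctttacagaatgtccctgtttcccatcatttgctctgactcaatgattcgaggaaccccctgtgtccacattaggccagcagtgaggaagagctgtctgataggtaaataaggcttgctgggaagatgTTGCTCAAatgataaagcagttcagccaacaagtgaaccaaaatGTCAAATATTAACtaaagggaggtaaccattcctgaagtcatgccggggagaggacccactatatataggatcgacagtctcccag

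The next 3 windows are shown because their genes lie on either side of the median member ratio: Apoa4, with the largest difference, and Fabp1 past it, and Vtn, with the smallest difference, short of it. Capitals mark 2 HNF4 matches in Apoa4 (chr9:46240594-46240893, plus strand), a C/EBP match and a TATA box in Fabp1 (chr6:71199629-71199928, plus strand), and a pair of overlapping TATA matches on opposite strands in Vtn (chr11:78498870-78499169, plus strand). Among the other HNF4 matches, the one in Apoa2 overlaps a C/EBP match. Bhmt and Slc27a2, the members next to Apoa4 in the order of ratios, had none of the 5 motifs in their windows.
Apoa4: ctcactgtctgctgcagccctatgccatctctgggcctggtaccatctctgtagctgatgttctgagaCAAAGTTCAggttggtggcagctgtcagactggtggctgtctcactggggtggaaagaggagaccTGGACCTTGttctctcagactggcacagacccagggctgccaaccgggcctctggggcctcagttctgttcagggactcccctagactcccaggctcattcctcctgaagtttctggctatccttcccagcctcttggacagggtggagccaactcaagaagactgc
Fabp1: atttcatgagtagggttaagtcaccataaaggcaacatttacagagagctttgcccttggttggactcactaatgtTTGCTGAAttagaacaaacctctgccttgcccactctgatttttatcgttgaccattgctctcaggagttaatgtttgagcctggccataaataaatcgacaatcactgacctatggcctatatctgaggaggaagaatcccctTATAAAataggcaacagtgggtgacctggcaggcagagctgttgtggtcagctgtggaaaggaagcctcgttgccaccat
Vtn: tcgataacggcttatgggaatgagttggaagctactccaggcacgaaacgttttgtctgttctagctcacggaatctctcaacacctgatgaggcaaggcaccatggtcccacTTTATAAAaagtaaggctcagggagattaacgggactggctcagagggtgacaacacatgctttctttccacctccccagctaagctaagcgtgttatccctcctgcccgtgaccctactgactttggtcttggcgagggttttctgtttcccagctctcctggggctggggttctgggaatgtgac

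Albumin and the carriers of plasma were lower together, but albumin by less than the rest of its group. Alb, which encodes the main protein of blood plasma (chromosome 5, 90460897 to 90476602, GRCm38), had 853 reads (66.6 CPM) in the entacapone library against 2813 reads (204 CPM) in the vehicle library. It was 3.06-fold lower (2.83 to 3.30), and per exon length it ranked 1 among the 41 members in both libraries. At the median member ratio the entacapone library would have held 289 Alb reads. Ttr, which carries thyroid hormone and retinol binding protein, had 25 against 333 reads, 12.3-fold lower (8.21 to 19.3). Gc, the vitamin D binding protein, had 17 against 257 reads, 14.0-fold lower (8.58 to 24.4). Gc and Alb lie within 1059 kb of chromosome 5, and their intervals did not overlap. Hpx, the heme scavenger hemopexin, had 39 against 284 reads, 6.75-fold lower (4.82 to 9.69). Ambp, the precursor of alpha-1-microglobulin and bikunin, had 9 against 132 reads. All 7 of this group were called lower, and only Alb departed from the median member ratio.

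The major urinary proteins carry pheromones and are made by male mouse liver. Mup20, also known as darcin, had 11 reads in the entacapone library and 186 in the vehicle library, 15.7-fold lower (8.56 to 31.9). Mup3 had 24 against 196 reads, 7.57-fold lower (4.94 to 12.1). Mup genes are near-identical copies, so reads may be split among them and single values are uncertain. Over the 21 Mup genes listed the sums were 88 against 591 reads, 6.22-fold lower (4.97 to 7.88).

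The 8 apolipoproteins and lipid binding genes were all called lower. Their summed reads were 10.7-fold lower (9.07 to 12.7), and those of the liver enzyme group 10.5-fold lower (8.13 to 13.7), with overlapping intervals. Apoa1, the main protein of high-density lipoprotein, had 50 reads in the entacapone library against 418 in the vehicle library, 7.75-fold lower (5.77 to 10.6). Apoa2, its partner there, had 30 against 384 reads, 11.9-fold lower (8.17 to 17.8). Apob, the scaffold of very-low-density lipoprotein, had 20 against 190 reads, 8.80-fold lower (5.54 to 14.7). These 3 intervals held the median member ratio. Fabp1, the liver fatty acid binding protein, had 15 against 251 reads, 15.5-fold lower (9.22 to 28.1), so its interval lay just past that ratio. Apoh, which binds phospholipid, had 8 against 115 reads.

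Apoa1, Apoc3, Apoa4 and Apoa5 lie within 43.3 kb of chromosome 9 (46228580 to 46271919, GRCm38) and differed among themselves. Apoa4, a lipoprotein protein made by liver and intestine, had 2 reads in the entacapone library and 137 in the vehicle library, 63.5-fold lower (17.2 to 529). Apoc3, an inhibitor of triglyceride clearance, had 18 against 126 reads, 6.49-fold lower (3.94 to 11.3). The intervals of these neighbours did not overlap. Apoa5, which promotes triglyceride clearance, had 8 against 125 reads, 14.5-fold lower (7.12 to 34.3). Exons of Apoa4 overlap the antisense genes Gm10680 and Gm47528 over 34.8% and 34.9% of its exon length, and the library kit does not mark the strand. Of the small intestine markers, Sis, Alpi and Cdx2 were at 0 in both libraries. Fabp2, the intestinal fatty acid binding protein, had 0 reads in the entacapone and 9 in the vehicle library. Over the 9 intestinal markers found, the sums were 75 against 90 reads, of which Mttp alone held 63 and 67. The part of intestinal cells in the Apoa4 value was not tested.

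Clotting genes were lower in 7 of 8 by the call. The 3 fibrinogen chains, which assemble into 1 protein, lie within 42.1 kb of chromosome 3 (83007724 to 83049863, GRCm38). Fga had 49 reads in the entacapone library against 346 in the vehicle library, Fgb 37 against 283, and Fgg 29 against 238. They were 6.54-fold (4.84 to 9.01), 7.09-fold (5.02 to 10.3) and 7.60-fold (5.16 to 11.6) lower, with intervals that overlap. Fga alone of the 3 missed the median member ratio, by a bound of 9.01-fold against 9.03-fold. F2, which encodes prothrombin, had 7 against 107 reads, and Plg, the precursor of plasmin, 7 against 113 reads. Serpinc1, the thrombin inhibitor antithrombin, had 12 against 99 reads, 7.64-fold lower (4.19 to 15.3), with 34.4% of its exon length shared with Zbtb37 on the other strand. Kng1, the precursor of bradykinin, had 2 against 68 reads, 31.5-fold lower (8.39 to 265).

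Vtn, the adhesion protein vitronectin (chromosome 11, 78499091 to 78502324, GRCm38), was the member with the smallest difference. It had 164 reads (12.8 CPM) in the entacapone library and 271 reads (19.6 CPM) in the vehicle library, 1.53-fold lower (1.26 to 1.87). This was under the limit of 2-fold, so Vtn was the 1 compared member that was not called. The median member ratio would have given 27.8 entacapone reads. In reads it ranked 3 among members in the entacapone and 10 in the vehicle library.

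The 8 protease inhibitors were all called lower, with a median of 5.27-fold. Their summed reads were 4.33-fold lower (3.82 to 4.94). Serpina3k had 168 reads (13.1 CPM) in the entacapone library against 475 reads (34.4 CPM) in the vehicle library, 2.62-fold lower (2.19 to 3.14). It belongs to a family of similar genes, 2 of which were far more abundant in both libraries: Serpina3n with 11041 against 11850 reads and Serpina3c with 4980 against 5628 reads. Its neighbour Serpina3m, with which it shares 60 exon bases, had 274 against 191 reads. Reads shared among such copies cannot be assigned with certainty, so the Serpina3k value is uncertain. Serpina1a, an alpha-1-antitrypsin gene, had 26 against 100 reads, 3.56-fold lower (2.30 to 5.72), and its copy Serpina1c had 4 against 31 reads. Over the 6 listed Serpina1 genes the sums were 81 against 469 reads, 5.36-fold lower (4.23 to 6.88).

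Itih1, Itih3 and Itih4 encode heavy chains and a relative of the inter-alpha-trypsin inhibitors, which bind hyaluronan, and lie within 56.8 kb of chromosome 14. Itih3 had 17 reads in the entacapone library and 67 in the vehicle library, 3.65-fold lower (2.12 to 6.63). Itih4 had 28 against 146 reads, 4.83-fold lower (3.21 to 7.52), and Itih1 had 4 against 25 reads, 5.79-fold lower. The 3 intervals overlap one another. Ahsg, the mineral-binding protein fetuin-A, had 29 against 330 reads, 10.5-fold lower, with an interval that held the median member ratio. Pzp, a broad protease inhibitor of the alpha-2-macroglobulin family, had 16 against 192 reads, 11.1-fold lower (6.67 to 19.8).

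Of the intracellular liver genes, 7 of the 7 compared were called lower, beside 3.5% of all genes compared. These are members chosen on this contrast, so that count is a description and supports nothing. Bhmt, which remethylates homocysteine, had 3 reads in the entacapone library against 120 in the vehicle library, 37.1-fold lower (12.4 to 182). Slc27a2, a very long chain fatty acid transporter and acyl-CoA synthetase, had 2 against 105 reads, 48.6-fold lower (13.1 to 407). Both lay past the median member ratio. Mat1a, the liver form of methionine adenosyltransferase, had 17 against 191 reads, 10.4-fold lower (6.33 to 18.2). Tdo2, which opens the tryptophan ring, had 13 against 53 reads, 3.78-fold lower (2.03 to 7.55). Hpd, an enzyme of tyrosine breakdown, had 8 against 78 reads.

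The urea cycle was seen through 3 members, of which Cps1 and Arg1 were called lower and Otc was not compared. Another 2 enzymes of the cycle are no members and were looked up after their values were known. Ass1, which makes argininosuccinate, had 117 reads in the entacapone library against 181 in the vehicle library, and was not called. Asl, which splits it, had 408 against 352 reads and was not called either. Cps1, the entry enzyme of the cycle, had 6 reads in the entacapone library and 63 in the vehicle library, 9.73-fold lower (4.23 to 27.5). Arg1, the last, had 12 against 82 reads, 6.33-fold lower (3.44 to 12.8). Arg1 is also made by macrophages, whose markers were called lower in 6 of 7, with sums of 5914 against 13458 reads; their part in the Arg1 value was not tested. Otc, the ornithine transcarbamylase gene on the X chromosome, had 1 against 14 reads. Tat, which starts tyrosine breakdown, had 2 against 22 reads, and Hamp, which encodes the iron hormone hepcidin, 1 against 8. At so few reads only large differences could be seen, and the Hamp interval (0.994 to 329) held no difference.

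The make-up of the member reads differed between the libraries. Alb took 47.6% of them in the entacapone and 29.4% in the vehicle library. Serpina3k took 9.37% against 4.96%, and Vtn 9.15% against 2.83%. The 8 members on the smaller side of the median ratio together took 73.5% of the member reads in the entacapone library against 44.6% in the vehicle library. These 8 held 1318 entacapone reads, where the median ratio would have given 438. Per exon length the order changed likewise. In RPKM, which is CPM per kilobase of exon, the entacapone library was led by Alb (28.5), Serpina3k (6.38), Vtn (6.31), Apoa2 (4.37) and Apoa1 (3.16). The vehicle library was led by Alb (87.0), Apoa2 (51.8), Fabp1 (32.9), Apoa1 (24.5) and Ttr (20.3).

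**Figure D4:**
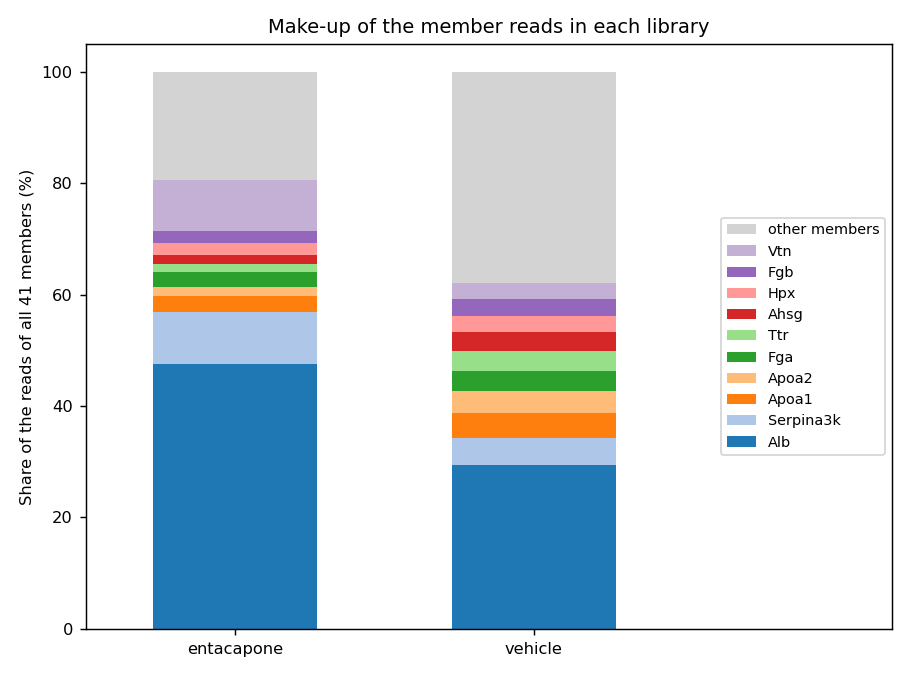
Share of the summed reads of all 41 members (y axis, percent) taken by the 9 members with the most vehicle reads, by Vtn and by the others, in the entacapone and the vehicle library. Alb takes 47.6% in the entacapone and 29.4% in the vehicle library, and Vtn 9.15% against 2.83%.

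Other liver genes, in 9 lists taken from general knowledge of the liver, ranged from some near the median member ratio to others that differed little. Some lay between, such as Gcgr, 3.89-fold lower, and F10, 2.08-fold lower. Of 124 such genes found, 69 had a mean of at least 1 CPM. Of these, 39 were called lower and 0 higher, beside 3.5% and 1.66% of all genes compared. A gene could pass that limit through the vehicle library alone, as Hnf4a did with 1 entacapone read against 30 vehicle reads. The lists were chosen with earlier results known, so the count is a description. Among the 69, the intervals of 28 held the median member ratio, 1 lay past it, and 40 lay on the smaller side, 10 of which were still called lower. The median log2 ratio of the 69 was -0.98, or -1.38 without an added 0.5 CPM and with the 2 genes at 0 set to a floor of 3 reads.

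Clotting genes outside the members were called lower in 8 of 10. Proc, the anticoagulant protein C, had 1 read in the entacapone library against 27 in the vehicle library, 25.0-fold lower (4.12 to 1024). F7 (27 against 55 reads) and Kng2 (10 against 19) were not called. F10, which generates thrombin, was lower with 24 against 54 reads. In the complement list 2 of 4 were called: C8a, a subunit of the membrane attack complex, had 0 against 35 reads. C6, another subunit of that complex, had 884 against 1109 reads. Fat cells and other tissues also make some complement proteins.

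Of 15 other plasma proteins compared, 9 were called lower. Serpina1b had 21 reads in the entacapone library against 203 in the vehicle library, and Apoc4 had 2 against 40. The abundant ones did not follow. Hp, the hemoglobin scavenger haptoglobin, had 51339 entacapone reads (4011 CPM) against 102025 vehicle reads (7386 CPM), 1.84-fold lower (1.82 to 1.86). Rbp4, the retinol carrier, had 399.8 CPM in the entacapone library against 299 CPM in the vehicle library, and Trf, the iron carrier transferrin, at 119 against 116 CPM. These genes are known to be expressed in fat.

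Metabolic lists also held both genes near the median member ratio and genes that differed little. Among amino acid enzymes 4 of 11 were called lower, all with an interval that held the median member ratio: Uroc1, Gnmt, Hgd and Ftcd. Gnmt, a glycine methyltransferase of liver, had 6 reads in the entacapone library against 72 in the vehicle library. Oat and Fah, an aminotransferase and a tyrosine pathway enzyme, had 2187 against 2242 and 2783 against 2527 reads. In glucose, fructose and ketone body metabolism 3 of 7 were called lower. Fbp1, an enzyme of gluconeogenesis, had 3 reads in the entacapone library against 62 in the vehicle library. Pck1, which fat uses to make glycerol, had 16697 against 18157 reads.

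In bile acid metabolism 3 of 5 were called lower, with Slco1b2, a hepatocyte uptake transporter, at 4 reads in the entacapone library against 54 in the vehicle library. Cyp27a1, a sterol hydroxylase found in many tissues, had 372 against 583 reads. In drug metabolism 4 of 6 were called lower, among them Cyp2d26 with 2 against 68 reads and Cyp4a14 with 7 against 87 reads, while Sult1a1 had 3044 against 2742. Cyp2e1, a liver P450 that is no member and was looked up after its value was known, had 12151 against 6872 reads, 1.91-fold higher (1.85 to 1.97).

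Among liver-enriched transcription factors 3 of the 4 compared were called lower, and 8 of the 12 listed were too low to compare. Nr5a2, the factor not called, had 20 reads in the entacapone library against 23 in the vehicle library. Hnf4a, a nuclear receptor that controls many of the genes above, had 1 read in the entacapone library and 30 in the vehicle library, 27.8-fold lower (4.62 to 1134). Creb3l3, a lipid-regulating factor, had 12 against 65 reads. Of hepatocyte receptors 3 of 7 were called lower, among them Asgr1, a subunit of the asialoglycoprotein receptor, with 2 against 47 reads. Ghr, the growth hormone receptor, which fat also expresses, had 12320 against 11335. The intervals of 3 genes on this list of receptors and sensors, Ghr, Hfe2 and F11r, lay wholly on the side of higher levels under entacapone. Those of F11r and Hfe2 did so by little, with nearest log2 bounds of 0.006 and 0.027.

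**Figure D5:**
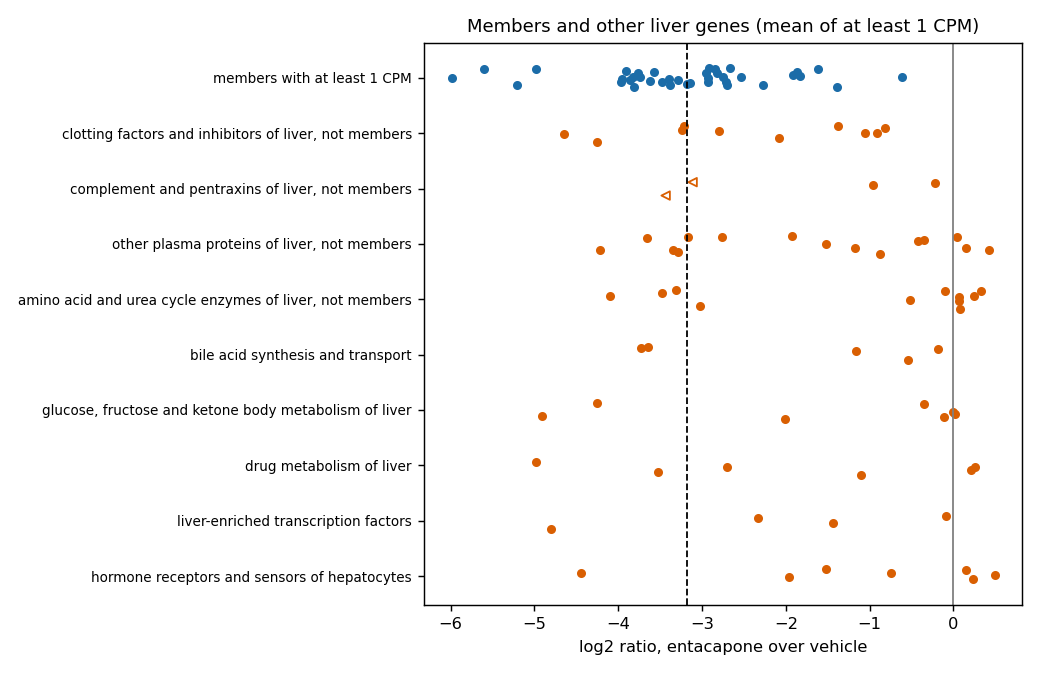
Log2 ratio of entacapone over vehicle (x axis) for the 38 members compared (blue) and for the genes of 9 other liver lists with a mean of at least 1 CPM (orange). Hollow triangles mark C8a and C4bp, at 0 in the entacapone library and set to a floor of 3 reads. The dashed line is the median member ratio and the grey line no difference. Most lists hold genes near each line, as in the amino acid list with 4 called lower and 7 not.

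Markers of other liver cells were mostly not called. Of 6 Kupffer cell markers compared, 3 were called lower (Folr2, Vsig4 and Cd5l), with sums over the 7 listed of 1333 reads in the entacapone and 1993 reads in the vehicle library. C6, which is also on the complement list, alone held 884 and 1109 of these reads. Clec4f, the marker most particular to Kupffer cells, had 0 against 9 reads. Resident macrophages of fat share several of these genes. Sinusoidal endothelial markers were called lower in 1 of 4 (599 against 1047 reads in sum, Bmp10 at 0 in both) and stellate cell markers in 0 of 4 (4083 against 5501, Lrat at 0 against 1). Bile duct markers were called lower in 0 and higher in 2 of 5 (141 against 111 reads, Cftr at 0 in both). The part of these cells in the member values was not tested.

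Of the markers of skeletal muscle, keratinocytes, red blood cells, pancreas and kidney, 0 were called lower. Skeletal muscle markers were called higher in 2 of 8, with sums of 25186 reads in the entacapone and 17914 in the vehicle library. Keratinocyte markers were called higher in 4 of 6, with 1078 against 319 reads, and red blood cell markers in 0 of 5, with 5981 against 3912 reads. Of pancreas markers 6 of 8 were at 0 in each library (sums of 853 against 1047 reads), and likewise 6 of 8 kidney markers (35 against 14 reads). The 1 compared pancreas marker, Cela1, had 852 against 1044 reads. The part of these tissues in the member values was not tested.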

How the data were processed

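Poly(A)-selected RNA of white adipose tissue was sequenced in 1 library per group. The deposited values are raw counts of reads for each Ensembl gene. The submitters' processing notes name TopHat2 2.1.1, HTSeq 0.6.0 and build mm10. How reads were assigned to genes, with which annotation, is not given in these sources. Symbols matched 35449 of 37315 genes; the 1866 others held 0.188% of the entacapone and 0.181% of the vehicle reads. Positions and exon lengths come from GENCODE M21 (GRCm38, the assembly of mm10).

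CPM used edgeR 4.0.16 TMM factors (0.986 for entacapone, 1.01 for vehicle). Ratio intervals were computed from exact Clopper-Pearson bounds on the fraction of a gene's reads found in the entacapone library; a library without reads was set to 3 reads. No p-value is given. The ratios and intervals were run on simulated counts that held counting error only. That run cannot show how they fare with copied reads or variation among mice. Members, roles and the lists of other genes were chosen with earlier results of these data known. Named were all members and, by a written rule, the genes of each liver list with the most vehicle reads and the lowest and highest ratios, and marker genes with reads; not all that rule allows are printed, and other list genes, family copies, Cyp2e1 and the genes on no list were chosen after their values were seen. Listed names without a matching gene (C5, Tf, Apob48r, Klkb1) were left out. Some genes of these lists are not reported here. Alternatives included DESeq2 1.42.0 size factors. Exons of 12 members overlap another gene, 11 of them on the opposite strand, and the kit does not mark the strand.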

Additional observations from a re-analysis of the deposited data

How the results depend on the processing

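Under total-count, DESeq2 and upper-quartile scaling, 121 of 123 member values kept their direction and their side of the 2-fold and interval limits. These scalings moved ratios little: that of Alb, 0.327, became 0.318 under total counts and 0.331 under upper-quartile scaling. Differences of several fold could hardly change side, so this count says little. The limit of 1 CPM was left out of this check. The interval of Hamp, a member under that limit, held no difference in the main setting and excluded it under total-count and DESeq2 scaling. The number of members called lower, 37, became 21 with a minimum of 5 CPM, since fewer genes are compared there. The number of other liver genes called lower, 39, became 67 with no limit on expression and 2 with the minimum of 5 CPM. The entacapone-over-vehicle ratio of the summed member reads, 0.202, was 0.150 without Alb. The number of intervals holding the common ratio, 29, was 17 with the ratio of the summed reads. The HNF1 share, 17.6%, was 2.94% with 1 mismatch fewer, and the HNF4 share, 17.6%, was 0% with none, against 0.207% and 0.475% of all windows. Depth limits members with few entacapone reads, whose ratios have wide intervals. No paired analysis was possible because each group has 1 library.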

Other observations

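Seminal vesicle secretion genes, a set that was looked up after its values were seen, had reads in the vehicle library only. All 7 listed Svs genes had 0 reads in the entacapone library, against a sum of 279 reads, or 20.2 CPM, in the vehicle library. Svs5 had 0 against 108 reads and Svs4 had 0 against 63. Svs2 and Svs1 had 0 against 46 and 0 against 32 reads. These encode secreted proteins of the male accessory gland.

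Of the 93 genes whose interval held the median member ratio, 26 were members, 28 were on the other liver lists and 39 were on none. The 39 include Mug1, a murinoglobulin protease inhibitor, with 11 reads in the entacapone library against 110 in the vehicle library, and the carboxylesterase Ces3a with 7 against 94. They also include Uox, the urate oxidase of rodent liver, with 4 against 75 reads, and Aqp9, a glycerol channel of liver, with 4 against 55. Of the 10 genes whose interval lay past that ratio, 5 were on no list: Svs2, Svs4, Svs5, the P450 gene Cyp2d9 with 0 against 62 reads, and the pseudogene Gm1821 with 57 against 1185 reads.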
